A study of Homo sapiens with 31 samples.

Results

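EGFR and its relatives ERBB2, ERBB3 and ERBB4 are receptor tyrosine kinases of the cell surface, and AREG, EREG, TGFA, HBEGF, BTC and EGF encode growth factors that bind EGFR. These 4 receptors and 6 ligands were taken by name from a table of 19221 genes, and all 10 were found in it. The level of each gene is given as FPKM, sequenced fragments corrected for transcript length and for the total of mapped fragments. The 31 mRNA libraries came from cell lines that the study used as models of ovarian cancer. C13* is a cisplatin-resistant line with intact homologous recombination, and it carried a lentiviral short hairpin RNA that was either a control (shCON, n = 7) or directed at CEBPB (shCEBPB, n = 8). A2780 (n = 8) is a parent line sensitive to the PARP inhibitor olaparib. A2780 OlaR (n = 8) is the strain raised from it in continued and increasing olaparib. Exposure went on until its IC50 was at least 30 times that of the parent. The paper itself grants that the origin of C13* makes its use questionable. It also states that A2780 was reported as an unlikely line of high-grade serous ovarian cancer. C/EBPβ, the product of CEBPB, belongs to the leucine zipper family of transcription factors, and the study asked what its knockdown and acquired olaparib resistance change in these cells. The study's methods call the replicates biological, and no label says whether they came from separate cultures, so a p-value measures the spread between these libraries.

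The ligands are made as precursors in the cell membrane and are released by ADAM proteases. A bound ligand lets receptors pair, and the paired kinases start the RAS to ERK and the PI3K to AKT cascades. EGFR binds all 6 ligands, ERBB4 also binds HBEGF, BTC and EREG, and ERBB3 binds neuregulins. ERBB2 has no known ligand of its own, and the kinase of ERBB3 is weak, so both signal mainly in pairs with other family members. In epithelial cells AREG, EREG, TGFA and HBEGF form autocrine loops with EGFR. ERK signalling in turn induces several of these ligands and also the phosphatases and adaptors that limit the pathway.

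The deposited values keep no read totals, but the steps of low FPKM values gave a relative depth between 0.865 and 1.23 times the median library, a span of 1.42-fold. CEBPB was at 85.8 ± 9.93 FPKM (SD, n = 7) in C13* shCON, with a lowest value of 75.2, and at 47.1 ± 9.05 FPKM (SD, n = 8) in C13* shCEBPB, with a highest value of 58.7. The groups did not overlap for CEBPB (log2 fold change -0.87, standard error (SE) 0.11, adjusted p = 1.42e-06, limma). In A2780 and A2780 OlaR CEBPB was at 99.7 ± 7.63 and 112 ± 11.6 FPKM (SD, n = 8 each), and these groups overlapped (log2 fold change 0.16, adjusted p = 0.0202, limma). The libraries labelled A2780 OlaR stood close to those labelled C13* shCON and apart from those labelled A2780. Of 12967 genes, 0.53% differed at least 2-fold between the means of C13* shCON and A2780 OlaR, against 34.83% between A2780 and A2780 OlaR and 27.65% between C13* shCON and C13* shCEBPB. The codes of the libraries begin with C for A2780 OlaR, CS for C13* shCON, O for A2780 and R for C13* shCEBPB. These letters are not explained in the labels. CS shares its letters with C13* shCON, but C, O and R do not follow the names of their groups. Whether libraries or lines were exchanged was not tested, so the group names used here are those of the labels only, and each comparison is one between libraries labelled in that way. The 5 basal and squamous markers summed to between 2523 and 3348 FPKM in the C13* shCON and A2780 OlaR libraries, to 85.2 to 172 FPKM in C13* shCEBPB and to 0.416 to 1.87 FPKM in A2780, where KRT5 and KRT6A were at 0 in every library. The sum in C13* shCEBPB was nearly all SFN, with a mean of 129 FPKM. KRT5, KRT14, KRT6A and TP63 had means of 0.0134, 0.0512, 0.00289 and 0.0791 FPKM there. The 5 mesenchymal markers summed to 857 to 898 FPKM in A2780, 349 to 377 FPKM in C13* shCEBPB and 24.6 to 38.0 FPKM in the C13* shCON and A2780 OlaR libraries. VIM carried most of the high sums, with means of 809 FPKM in A2780 and 342 FPKM in C13* shCEBPB. ZEB1 was also higher in these groups (14.5 and 6.55 FPKM) than in C13* shCON (0.507 FPKM) and A2780 OlaR (0.536 FPKM). By contrast, CDH2 was lower in C13* shCEBPB (7.56 FPKM) than in C13* shCON (17.3 FPKM). FN1 was lowest in A2780 (0.524 FPKM), and SPARC was near 0 in every group. The 5 simple epithelial markers had median sums of 974 (C13* shCON), 2045 (C13* shCEBPB), 88.6 (A2780) and 1014 FPKM (A2780 OlaR), but these genes did not move together. KRT7, KRT8 and KRT18 had higher means in C13* shCEBPB than in C13* shCON, KRT7 at 583 against 8.02 FPKM, while EPCAM was at 0.567 against 110.7 FPKM and CDH1 at 0.655 against 82.9 FPKM. EPCAM and CDH1 were likewise low in A2780 (1.202 and 0.0280 FPKM) and high in A2780 OlaR (115.7 and 99.5 FPKM). The 6 Müllerian and ovarian carcinoma markers had median sums of 40.3, 165, 3.60 and 36.0 FPKM in the same order of groups, with SOX17 at 0 in every C13* shCON and A2780 library. MSLN carried most of the high sum in C13* shCEBPB (153.5 against 30.7 FPKM in C13* shCON). MUC16 (0.604 against 0.104 FPKM) and SOX17 (1.83 against 0 FPKM) also had higher means in C13* shCEBPB. PAX8 (0.536 against 6.10 FPKM), ESR1 (0.0426 against 2.38 FPKM) and WT1 (0.0232 against 0.819 FPKM) had lower means there. Of the 5 leukocyte markers CD3E was at 0 in all 31 libraries, and the sum ran from 78.8 to 104 FPKM in A2780, 37.5 to 45.5 in A2780 OlaR, 62.8 to 70.3 in C13* shCON and 11.2 to 14.1 in C13* shCEBPB. PTPRC, the common leukocyte antigen, was at 75.7 to 102.5 FPKM in the A2780 libraries and at most at 0.0144 FPKM in any other library. CD68 had means of 65.4 (C13* shCON), 11.7 (C13* shCEBPB), 2.22 (A2780) and 41.9 FPKM (A2780 OlaR). The 5 fibroblast markers summed to 35.6 to 38.4 FPKM in A2780, 3.71 to 5.16 in A2780 OlaR, 3.03 to 3.65 in C13* shCON and 15.4 to 23.2 in C13* shCEBPB. DCN, LUM and COL1A2 had means of 9.59, 6.35 and 4.04 FPKM in A2780 and were at or near 0 in the other groups. Endothelial markers summed to at most 2.39 FPKM in any library, with PECAM1 at 0 in every A2780 library. Thus an effect of the hairpin or of olaparib on a gene and a difference between cell populations cannot be told apart in these libraries. The part of these markers in the results on the receptors and ligands was not tested. The C13* shCON library numbered 1 has A2780 in its cell line field and C13* in its title, and it was kept as C13* shCON.

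Of the 6 ligand genes, 3 lie near each other on chromosome 4 (GRCh38, GENCODE 44). EREG occupies chr4:74365145-74388749 on the plus strand, AREG follows 56.4 kb downstream at chr4:74445136-74455005 on the same strand, and BTC lies 289.8 kb further at chr4:74744759-74794523 on the minus strand. EREG, AREG and BTC were each high in the same groups, as described below, and their upstream sequences are shown because the study is about C/EBPβ, a factor that binds DNA in promoters. Each window holds the 250 bases upstream of the RefSeq start site, read 5′ to 3′ on the strand of the gene (RefSeq, GRCh38.p14), and runs over chr4:74364895-74365144 for EREG, chr4:74444886-74445135 for AREG and chr4:74794524-74794773 for BTC. Capitals mark matches to a loose C/EBP motif (TTNNGNAA) or to the cyclic AMP response element (TGACGTCA), searched on both strands.
EREG: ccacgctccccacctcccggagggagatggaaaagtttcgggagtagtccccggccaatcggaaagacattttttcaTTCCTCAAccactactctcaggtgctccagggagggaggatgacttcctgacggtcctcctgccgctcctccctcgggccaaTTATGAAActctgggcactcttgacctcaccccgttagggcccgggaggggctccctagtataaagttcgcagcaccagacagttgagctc
AREG: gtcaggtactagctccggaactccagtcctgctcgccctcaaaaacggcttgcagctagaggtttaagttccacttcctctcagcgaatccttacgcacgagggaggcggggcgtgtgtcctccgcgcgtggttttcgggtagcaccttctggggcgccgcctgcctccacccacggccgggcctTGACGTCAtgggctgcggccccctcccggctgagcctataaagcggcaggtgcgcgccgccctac
BTC: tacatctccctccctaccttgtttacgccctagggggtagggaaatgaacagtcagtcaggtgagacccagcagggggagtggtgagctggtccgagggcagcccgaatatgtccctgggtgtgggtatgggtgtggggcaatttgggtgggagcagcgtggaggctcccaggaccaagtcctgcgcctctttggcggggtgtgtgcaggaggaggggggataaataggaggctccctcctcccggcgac

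The EREG window held matches to the loose C/EBP motif that began at bases -173 and -91 from the start site. The AREG window held 1 cyclic AMP response element, beginning at base -65, and a TATA box (TATAAA) at base -29, and EREG had a TATA box at base -32. BTC had no match to any of the 6 motifs searched. In all, 11 windows of 9 of the 10 genes were found in the RefSeq table. The loose C/EBP motif was in 3 of the 11 windows and in 33.2% of all 35116 promoter windows of this length. The full C/EBP palindrome (TTGCGCAA) was in 0 of 11 and in 0.13% of all windows. The cyclic AMP response element was in 1 of 11 against 1.65%, an AP-1 motif (TGANTCA) in 3 of 11 against 6.57%, the GC box (GGGCGG) in 5 of 11 against 42.64%, and the TATA box in 3 of 11 against 10.72%. A match is only a run of letters and does not show that a factor binds there.

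**Figure D1:**
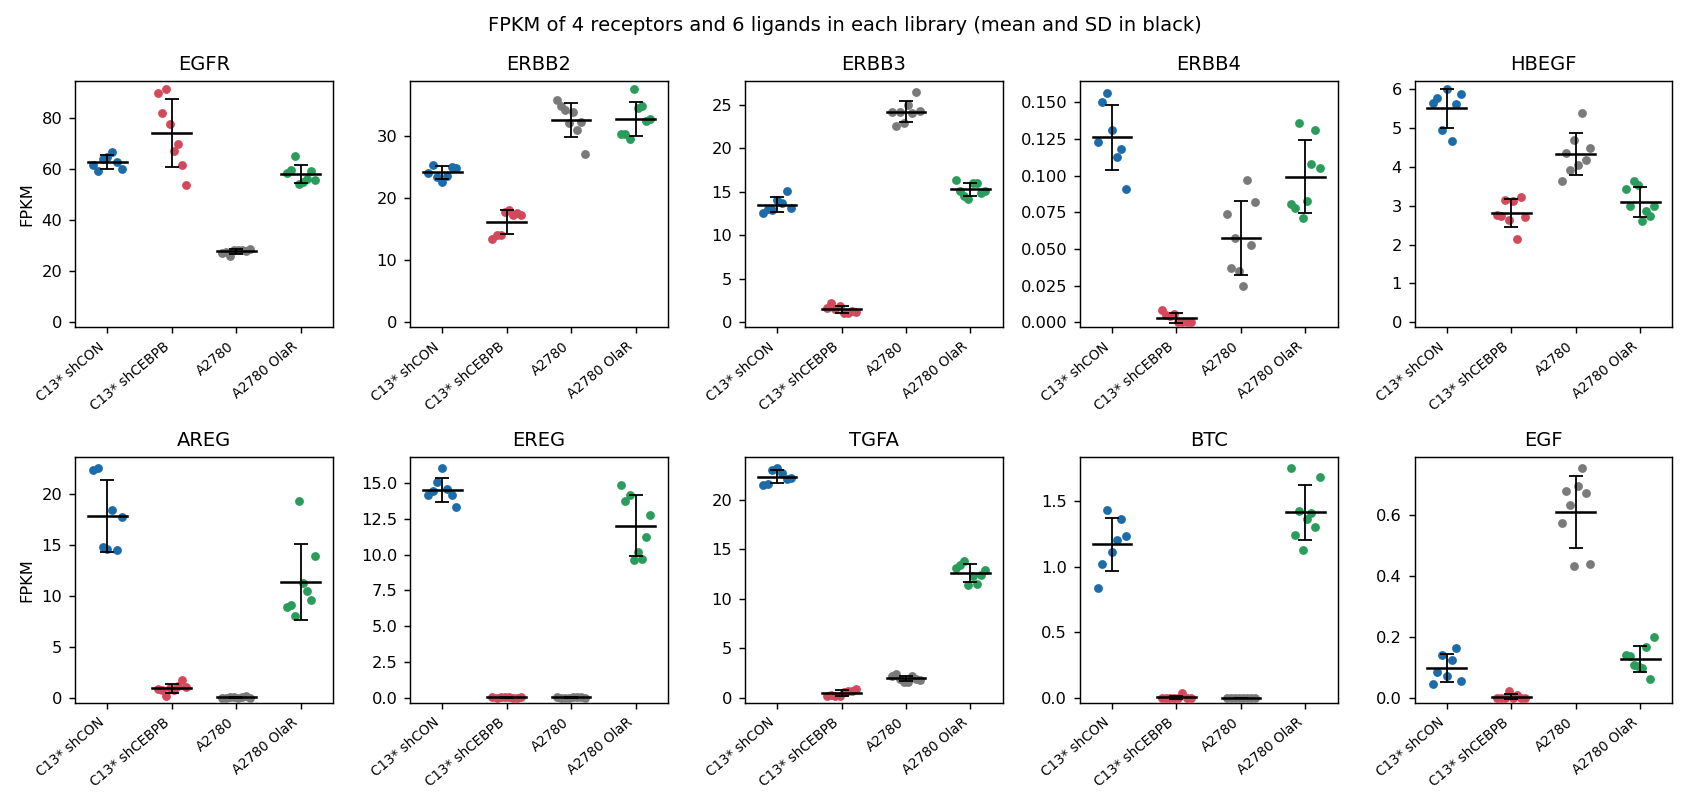
FPKM (vertical axes, linear, a separate scale for each gene) of the 4 receptors and 6 ligands in every library of the 4 labelled groups, each point being 1 library and the black lines the mean and SD. AREG, EREG, TGFA and BTC are high in C13* shCON and A2780 OlaR and near 0 in C13* shCEBPB, while EGFR is lowest in A2780, at 26.0 to 28.7 FPKM.

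Knockdown of CEBPB was compared first. In C13*, the ligands TGFA, EREG and AREG and the receptor ERBB3 were far lower in the shCEBPB libraries, HBEGF and ERBB2 were moderately lower, and EGFR was slightly higher. Of the 10 genes, 7 reached the expression minimum, and all 7 were DEGs (adjusted p under 0.05, limma), 1 higher and 6 lower. This count has to be read against the background, since 84.7% of the 12006 genes tested were DEGs, 38.9% higher and 45.7% lower. A fold change of at least 2 was reached by 4 of the 7, all lower, against 29.5% of all genes (12.7% higher, 16.7% lower). EREG and TGFA reached the expression minimum through the shCON libraries alone, so the filter itself set their groups apart. The 7 had a median log2 fold change of -2.57, against -0.07 over the whole table. Fold changes are on the scale of log2(FPKM + 1), which understates the change of genes with low FPKM.

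TGFA, a ligand of EGFR alone, and EREG had the most negative fold changes of the 7, and their order turned with the pseudocount (TGFA -3.995 and EREG -3.90 with 1, TGFA -5.42 and EREG -6.72 with 0.1). Its level ran from 21.5 to 23.2 FPKM in C13* shCON (median 22.2) and from 0.192 to 0.916 FPKM in C13* shCEBPB (median 0.435). Every shCEBPB library was below every shCON library (log2 fold change -3.995, SE 0.10, adjusted p = 3.14e-17, limma).

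EREG, which encodes epiregulin, was between 13.3 and 16.0 FPKM in C13* shCON (median 14.5). In C13* shCEBPB it was between 0 and 0.0937 FPKM (median 0.0406), and 1 of 8 libraries was listed at 0. EREG was thus nearly undetected in the shCEBPB libraries, and the groups were wide apart (log2 fold change -3.90, SE 0.04, adjusted p = 1.56e-22, limma).

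AREG encodes amphiregulin, a ligand that binds EGFR with low affinity. It varied more than its neighbour EREG within C13* shCON, from 14.5 to 22.5 FPKM with a median of 17.7. In C13* shCEBPB it ran from 0.151 to 1.77 FPKM (median 0.926), and 3 of 8 libraries reached 1 FPKM. Here too no library of one group reached the range of the other (log2 fold change -3.29, SE 0.15, adjusted p = 2.68e-13, limma).

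HBEGF, the heparin-binding ligand of EGFR and ERBB4, changed less than these 3 ligands. It was at 4.68 to 6.02 FPKM in C13* shCON (median 5.64) and at 2.15 to 3.22 FPKM in C13* shCEBPB (median 2.76). These ranges did not overlap (log2 fold change -0.77, SE 0.07, adjusted p = 3.82e-09, limma).

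BTC, EGF and ERBB4 did not reach the expression minimum in this comparison and were described by library. BTC missed it narrowly, with 6 of 7 shCON libraries at 1 FPKM or more, while EGF and ERBB4 were far under 1 FPKM in every library. BTC, which encodes betacellulin, ran from 0.842 to 1.44 FPKM in C13* shCON and was listed at 0 in 7 of 8 shCEBPB libraries. EGF, the founding ligand, ran from 0.0457 to 0.164 FPKM in shCON and was listed at 0 in 6 of 8 shCEBPB libraries. ERBB4, a receptor of neuregulins and of several EGFR ligands, ran from 0.0910 to 0.157 FPKM in shCON and was listed at 0 in 4 of 8 shCEBPB libraries. No shCEBPB library reached the shCON range of BTC, EGF or ERBB4 (two-sided exact permutation test, p = 0.000311 for each, which is the lowest value possible with 7 against 8 libraries). In units of the smallest step of each library, which would be single fragments if the authors counted whole ones, BTC stood at 90 to 171 steps per library in shCON and at 4 steps in total over the 8 shCEBPB libraries. For ERBB4 the same values were 52 to 70 per library and 11 in total, and for EGF 10 to 42 per library and 8 in total.

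Of the 3 receptors tested, ERBB3 had the largest change. ERBB3 was between 12.5 and 15.1 FPKM in C13* shCON (median 13.1) and between 1.06 and 2.19 FPKM in C13* shCEBPB (median 1.38). The groups were wide apart (log2 fold change -2.57, SE 0.09, adjusted p = 4.45e-15, limma).

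ERBB2, the partner without a ligand, fell less. It ran from 22.5 to 25.4 FPKM in C13* shCON (median 24.0) and from 13.3 to 18.0 FPKM in C13* shCEBPB (median 17.2), with no overlap (log2 fold change -0.56, SE 0.07, adjusted p = 4.00e-07, limma). ERBB2 shares 571 exonic bases with MIEN1 and 144 with PGAP3 on the opposite strand (GENCODE 44). Whether strand was used in counting is not given in the sources used here.

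EGFR was the receptor with the highest FPKM in both C13* groups. It lay between 59.3 and 66.6 FPKM in shCON (median 62.6), while the shCEBPB libraries spread from 53.7 to 91.2 FPKM (median 73.8) and reached both below and above the shCON range. The shCEBPB mean of EGFR was the higher one (log2 fold change 0.22, SE 0.09, adjusted p = 0.0407, limma), but an exact permutation test gave p = 0.0572 (two-sided). The call was also lost with other settings: it had an adjusted p of 0.418 after quantile normalization (log2 fold change 0.09) and of 0.0619 without shCON library 1 (log2 fold change 0.21). In the libraries numbered 1 to 3 alone the log2 fold change was 0.50 (adjusted p = 4.01e-05, limma) and in those numbered 4 to 8 it was 0.04 (adjusted p = 0.638, limma). EGFR shares 186 exonic bases with the antisense gene EGFR-AS1.

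Over all 10 genes, 9 had groups of libraries that did not overlap, the exception being EGFR. Among genes tested this was so for 6 of 7, against 66.0% of all 12006 tested.

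**Figure D2:**
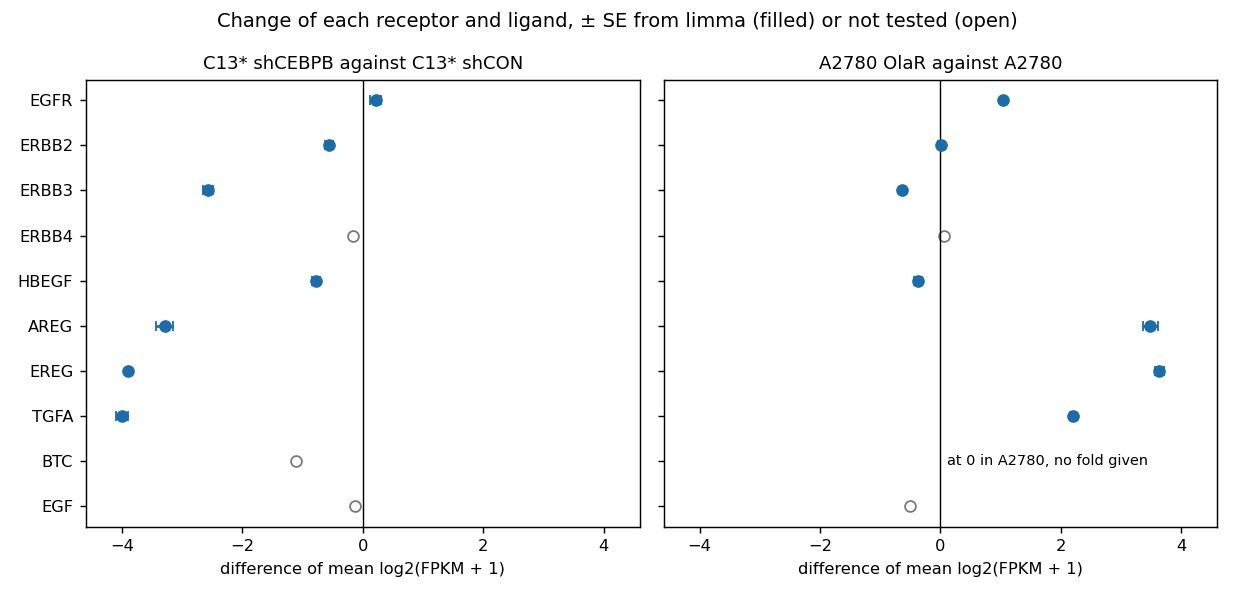
Difference between group means of log2(FPKM + 1) for each gene (horizontal axis), C13* shCEBPB minus shCON on the left and A2780 OlaR minus A2780 on the right. Filled points were tested and carry ± the standard error from limma, which is often smaller than the point, and open points were below the expression minimum. TGFA, EREG, AREG and ERBB3 lie left of -2 in the left panel, and AREG, EREG and TGFA right of 2 in the right panel. The A2780 value of ERBB2 lies at 0.01, and its sign turned when libraries were scaled to a common sum of FPKM.

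The libraries labelled as the olaparib-resistant strain were then compared with those labelled as its parent line, with the limit on these labels given above. In A2780 OlaR, EREG, AREG, TGFA, BTC and EGFR were higher than in A2780, ERBB3 and HBEGF were lower, and no difference was found for ERBB2. In this comparison 8 genes reached the expression minimum, and 7 of them were DEGs, 5 higher and 2 lower. Rises of at least 2-fold on the scale of log2(FPKM + 1) were reached by 5. BTC is among these 5, and the size of its rise from 0 depends on the pseudocount. EREG, AREG and BTC reached the minimum through the A2780 OlaR libraries alone, so the filter itself set their groups apart. In the background 89.8% of 12458 genes tested were DEGs, 40.1% higher and 49.7% lower, and 35.7% also changed at least 2-fold (15.5% higher, 20.1% lower). Over all these genes the median change was -0.12 on the log2 scale, and it was -0.18 with libraries scaled to a common sum of FPKM and -0.03 after quantile normalization. Therefore each change is given as fitted and relative to the median of -0.12.

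EREG was listed at 0 in 2 of 8 A2780 libraries and was at most 0.0835 FPKM in the others. In A2780 OlaR it was between 9.60 and 14.9 FPKM (median 12.0). The groups were wide apart (log2 fold change 3.64, SE 0.08, adjusted p = 2.42e-19, limma), and the change relative to the median was 3.76.

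AREG was listed at 0 in 1 A2780 library and reached 0.227 FPKM in the highest (median 0.0443). It was between 8.07 and 19.3 FPKM in A2780 OlaR (median 10.1), the widest range of the ligands in that group. All A2780 OlaR libraries were above all A2780 libraries (log2 fold change 3.48, SE 0.12, adjusted p = 8.41e-16, limma), and relative to the median AREG rose by 3.60.

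TGFA was low but measured in every A2780 library, at 1.64 to 2.38 FPKM (median 1.94). In A2780 OlaR it was at 11.4 to 13.8 FPKM (median 12.6). No libraries overlapped (log2 fold change 2.20, SE 0.06, adjusted p = 3.97e-18, limma), and relative to the median the rise was 2.32.

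BTC had a value of 0 in each of the 8 A2780 libraries. In A2780 OlaR its values went from 1.13 to 1.75 FPKM (median 1.39). The difference was called (adjusted p = 9.87e-16, limma), and no fold is given against a group listed at 0. This call was no separate test, since BTC reached the expression minimum through the A2780 OlaR libraries alone. In steps of the smallest value, BTC stood at 124 to 181 per A2780 OlaR library.

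HBEGF went the other way. It was at 3.64 to 5.39 FPKM in A2780 (median 4.27) and at 2.60 to 3.65 FPKM in A2780 OlaR (median 2.99), so that the groups overlapped slightly. The change was small but called (log2 fold change -0.38, SE 0.07, adjusted p = 2.46e-05, limma), and relative to the median HBEGF fell by 0.26 on the log2 scale. An exact permutation test gave p = 0.000311 (two-sided).

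EGF was the only ligand besides HBEGF with higher values in A2780. It ran from 0.433 to 0.751 FPKM in A2780 (median 0.650) and from 0.0618 to 0.201 FPKM in A2780 OlaR (median 0.122). EGF stayed below the expression minimum, but its ranges were apart (two-sided exact permutation test, p = 0.000155, which is the lowest value possible with 8 against 8 libraries).

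EGFR rose at a narrow spread. It ran from 26.0 to 28.7 FPKM in A2780 (median 28.0) and from 54.1 to 65.3 FPKM in A2780 OlaR (median 57.3). The groups did not overlap (log2 fold change 1.03, SE 0.04, adjusted p = 9.93e-16, limma), and relative to the median EGFR rose by 1.15.

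ERBB3 was the receptor that fell. It was at 22.6 to 26.5 FPKM in A2780 (median 24.2) and at 14.2 to 16.3 FPKM in A2780 OlaR (median 15.1). There was no overlap (log2 fold change -0.63, SE 0.04, adjusted p = 4.42e-12, limma), and relative to the median ERBB3 fell by 0.51 on the log2 scale.

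ERBB2 ran from 27.0 to 35.7 FPKM in A2780 (median 32.9) and from 29.5 to 37.6 FPKM in A2780 OlaR (median 32.5), and these ranges lay over each other. No difference was found as fitted (log2 fold change 0.01, SE 0.06, adjusted p = 0.901, limma). The value relative to the median was 0.13, and the sign of the fitted value depended on the setting. With a common sum of FPKM it was -0.06 (adjusted p = 0.278, limma). In the libraries numbered 1 to 3 alone it was -0.21 (adjusted p = 0.000195, limma) and in those numbered 4 to 8 it was 0.14 (adjusted p = 0.0341, limma).

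ERBB4 was between 0.0250 and 0.0967 FPKM in A2780 (median 0.0550) and between 0.0714 and 0.136 FPKM in A2780 OlaR (median 0.0941). These low ranges overlapped, and the exact permutation test gave p = 0.00559 (two-sided). Of the 10 genes, 7 had groups that did not overlap, and of the 8 tested 6 did, against 74.1% of all 12458 tested.

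All 4 groups were then placed in 1 fit to order the levels. Of the 10 genes 8 were tested in it, each in 6 pairs of groups, and 43 of the 48 pairs differed (adjusted p under 0.05, limma, Benjamini-Hochberg over 12967 genes and 6 pairs). EREG and BTC reached the expression minimum in this fit through the C13* shCON and A2780 OlaR libraries alone. AREG reached it through these libraries and 3 of C13* shCEBPB. The filter itself thus helped to set these groups apart from the low groups, and such pairs are among the 43. In the background, 43.3% of the 12967 genes differed between C13* shCON and A2780 OlaR. The other pairs had larger shares, 84.1% (C13* shCEBPB and C13* shCON), 87.3% (A2780 and C13* shCON), 87.8% (A2780 and C13* shCEBPB), 84.6% (A2780 OlaR and C13* shCEBPB) and 87.7% (A2780 OlaR and A2780).

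For EGFR the order of the means was C13* shCEBPB (74.1 FPKM), C13* shCON (62.7), A2780 OlaR (58.0) and A2780 (27.8). The neighbours C13* shCON and A2780 OlaR were not shown to differ (log2 difference, A2780 OlaR minus shCON, -0.11, adjusted p = 0.159, limma). For ERBB2 the order was A2780 OlaR (32.7 FPKM), A2780 (32.6), C13* shCON (24.1) and C13* shCEBPB (16.1), with no difference shown between the A2780 groups (adjusted p = 0.918, limma). ERBB3 was ordered A2780 (24.2 FPKM), A2780 OlaR (15.3), C13* shCON (13.5) and C13* shCEBPB (1.47), and every pair differed, the closest being A2780 OlaR and C13* shCON (log2 difference 0.17, adjusted p = 0.0260, limma).

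The ligands TGFA and AREG were highest in C13* shCON, with means of 22.3 and 17.8 FPKM, and next in A2780 OlaR, with 12.6 and 11.4 FPKM. TGFA was then higher in A2780 (1.97 FPKM) than in C13* shCEBPB (0.484 FPKM), while for AREG the order of these groups was turned (0.0707 and 0.944 FPKM), and every pair differed for both genes. EREG followed with 14.5 FPKM in C13* shCON and 12.0 FPKM in A2780 OlaR (log2 difference -0.27, adjusted p = 4.23e-04, limma), and its low values of 0.0413 FPKM in C13* shCEBPB and 0.0352 FPKM in A2780 were not shown to differ (adjusted p = 0.912, limma). BTC was the only one of these ligands that was higher in A2780 OlaR (1.42 FPKM) than in C13* shCON (1.17 FPKM; log2 difference 0.15, adjusted p = 0.00433, limma). HBEGF was ordered C13* shCON (5.51 FPKM), A2780 (4.34), A2780 OlaR (3.10) and C13* shCEBPB (2.81), the last pair not being shown to differ (adjusted p = 0.150, limma). The untested genes EGF and ERBB4 had their highest means in A2780 (0.608 FPKM) and in C13* shCON (0.126 FPKM).

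Several of the receptors and ligands differed between A2780 OlaR and C13* shCON by adjusted p, each by less than 2-fold. TGFA was lower in A2780 OlaR by 0.78 on the log2 scale (adjusted p = 1.92e-10, limma), HBEGF by 0.67 (adjusted p = 1.09e-10) and AREG by 0.64 (adjusted p = 1.79e-04). ERBB2 was higher in A2780 OlaR (log2 difference 0.42, adjusted p = 3.42e-07, limma). Of the 8 genes tested, 7 differed in this pair, to be read beside the background of 43.3%.

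Summed FPKM showed how the mixture of ligands and receptors was made up in each library. The 6 ligands summed to 61.5 ± 2.70 FPKM in C13* shCON (SD, n = 7), 4.29 ± 0.704 in C13* shCEBPB, 7.02 ± 0.659 in A2780 and 40.6 ± 3.30 in A2780 OlaR (SD, n = 8 each). No single library of the C13* shCEBPB and A2780 groups exceeded 8.43 FPKM, and none of the other groups was under 36.1 FPKM. By contrast, the 4 receptors summed to 100.4 ± 2.42 FPKM in C13* shCON, 91.7 ± 12.2 in C13* shCEBPB, 84.6 ± 2.38 in A2780 and 106 ± 1.67 in A2780 OlaR. Single libraries had receptor sums between 72.0 and 109 FPKM, and ligand sums between 3.64 and 65.4 FPKM.

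HBEGF took 66.5% of the ligand sum in C13* shCEBPB and 61.8% in A2780, but 8.97% in C13* shCON and 7.62% in A2780 OlaR, as means over libraries. TGFA held 36.4% in C13* shCON, 31.2% in A2780 OlaR, 28.1% in A2780 and 10.9% in C13* shCEBPB. The share of EREG was 23.7% in C13* shCON and 29.6% in A2780 OlaR and under 1% in the means of the other groups, and the share of EGF was 8.66% in A2780. Among the receptors EGFR made up 80.4% of the sum in C13* shCEBPB, 62.4% in C13* shCON, 54.6% in A2780 OlaR and 32.9% in A2780. ERBB2 was the largest component in A2780, at 38.4%, where ERBB3 held 28.6%, and ERBB3 held 1.59% in C13* shCEBPB.

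The ratio of EGFR to ERBB2 within a library does not depend on a scaling factor applied to the whole library. It ran from 0.761 to 1.06 in A2780, from 1.44 to 2.21 in A2780 OlaR, from 2.34 to 2.88 in C13* shCON and from 3.12 to 6.77 in C13* shCEBPB. The 4 groups did not overlap in this ratio. In A2780 the mean FPKM of ERBB2 was above that of EGFR, whereas in every library of the other groups EGFR was the higher one.

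**Figure D3:**
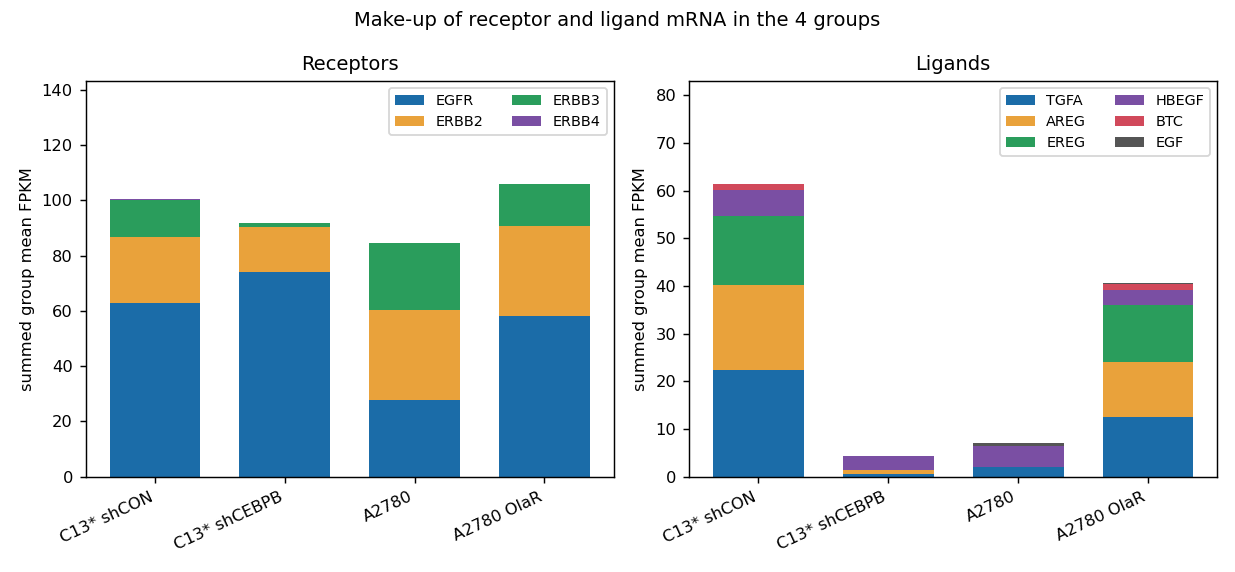
Group means of FPKM stacked for the 4 receptors (left) and the 6 ligands (right) in the 4 labelled groups, with linear axes from 0 and each colour a gene. The receptor stacks end between 84.6 and 106 FPKM, and the ligand stacks end at 61.5 FPKM in C13* shCON and 40.6 FPKM in A2780 OlaR but at 4.29 and 7.02 FPKM in C13* shCEBPB and A2780.

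Libraries with code numbers 1 to 3 and 4 to 8 differed in some genes within a group, and the labels do not say what the number stands for. The ranges of these sets of libraries did not overlap in 9 of the 40 combinations of gene and group, which is given as a description only. The same share over all genes was not taken, so the count shows nothing particular to these genes. EGFR in C13* shCEBPB ran from 82.2 to 91.2 FPKM in libraries 1 to 3 and from 53.7 to 77.6 FPKM in libraries 4 to 8. ERBB2 in the same group went the other way, with 13.3 to 14.1 and 17.2 to 18.0 FPKM. CEBPB itself was at 30.2 to 42.1 FPKM in libraries 1 to 3 of C13* shCEBPB and at 47.7 to 58.7 FPKM in libraries 4 to 8, and the part of this in the EGFR and ERBB2 values was not tested. In A2780 OlaR, EREG was at 13.7 to 14.9 FPKM in libraries 1 to 3 and 9.60 to 12.7 FPKM in libraries 4 to 8, TGFA at 13.1 to 13.8 and 11.4 to 12.9 FPKM, AREG at 8.07 to 9.14 and 9.61 to 19.3 FPKM, and ERBB2 at 29.5 to 30.3 and 32.3 to 37.6 FPKM. In A2780, ERBB2 was higher in libraries 1 to 3 (34.2 to 35.7 FPKM) than in libraries 4 to 8 (27.0 to 33.7 FPKM), opposite to A2780 OlaR. The remaining combinations were EGFR in A2780 and ERBB3 in C13* shCON. The FPKM sum of a whole library also differed by number in A2780 OlaR, at 432948 to 435413 (1 to 3) and 448243 to 454578 (4 to 8). In C13* shCEBPB it was 421616 to 432575 and 443684 to 453895. These ranges overlapped in A2780 and in C13* shCON. The part of these sums in the values of single genes was not tested.

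**Figure D4:**
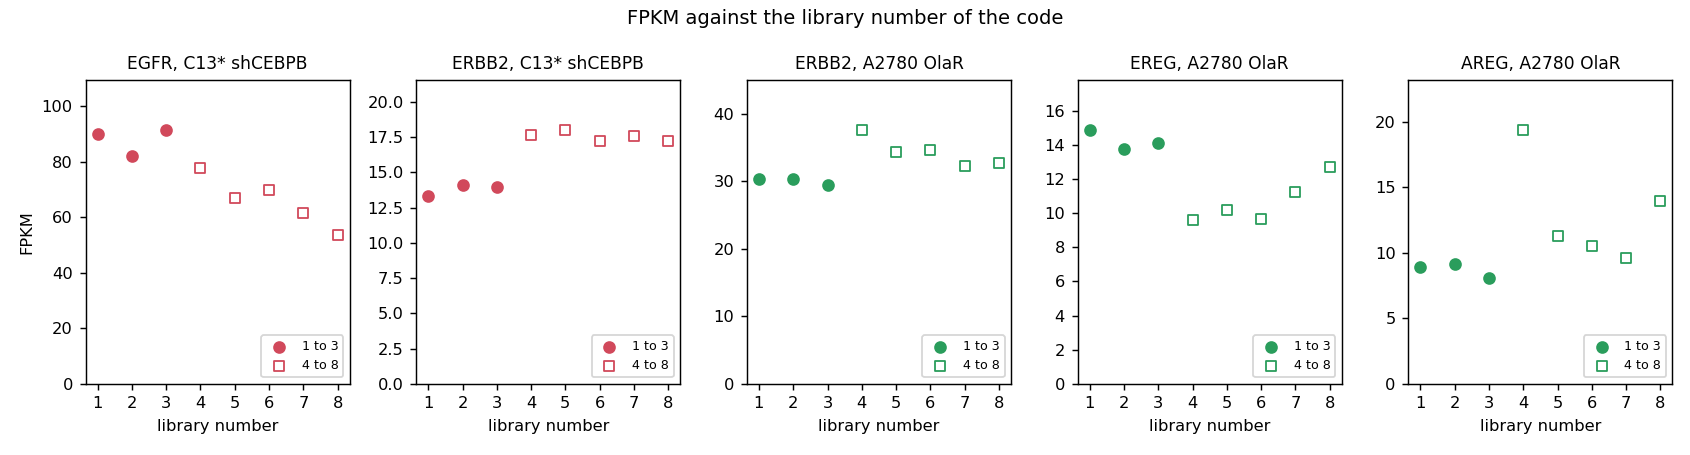
FPKM (vertical axes, linear from 0) against the library number of the code for 5 combinations of gene and group, with filled circles for libraries 1 to 3 and open squares for libraries 4 to 8. These 5 panels were chosen because the sets do not overlap, for example 82.2 to 91.2 against 53.7 to 77.6 FPKM for EGFR in C13* shCEBPB.

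The other genes of the pathway were followed with 5 lists of 71 genes in all, of which 69 were tested in each comparison. In C13*, 63 of the 69 were DEGs (91.3%, against 84.7% of all genes), 24 higher and 39 lower in shCEBPB, and 30 changed at least 2-fold (43.5%, against 29.5% of all genes), 7 higher and 23 lower (all genes 12.7% and 16.7%). Their median log2 fold change was -0.44, against -0.07 for all genes. In A2780 OlaR, 61 of 69 were DEGs (88.4%, against 89.8%), 30 higher and 31 lower, with a median of -0.06 against -0.12, and 27 changed at least 2-fold (39.1%, against 35.7%), 15 higher and 12 lower (all genes 15.5% and 20.1%). The count of each list is to be read against these shares.

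Of the 5 other ligands of the family 3 were tested and all 3 were DEGs in both comparisons. NRG1 and EPGN reached the expression minimum through the C13* shCON libraries alone, or the A2780 OlaR libraries alone. The filter itself thus set their groups apart in both comparisons. NRG1, a neuregulin that binds ERBB3 and ERBB4, fell from 31.96 to 0.159 FPKM in C13* shCEBPB (log2 fold change -4.83) and rose from 0.204 to 26.2 FPKM in A2780 OlaR (4.50). EPGN, another ligand of EGFR, fell from 5.93 to 0.0152 FPKM (log2 fold change -2.76) and rose from 0.108 to 3.33 FPKM (1.95). NRG4, a ligand of ERBB4, had the opposite signs, with log2 fold changes of 0.72 in C13* shCEBPB and -1.62 in A2780 OlaR.

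Among the 6 genes of ligand shedding, 5 were DEGs in C13* (1 higher, 4 lower) and 6 in A2780 OlaR (3 higher, 3 lower). ADAM10, a protease that releases EGF and BTC, fell from 48.7 to 22.5 FPKM in C13* shCEBPB (log2 fold change -1.09) and rose from 26.5 to 48.4 FPKM in A2780 OlaR (0.84). RHBDF2, a partner of ADAM17, fell in C13* shCEBPB (log2 fold change -1.12), and ADAM12 rose in both comparisons (0.98 and 1.96). Against A2780, ADAM12 reached the expression minimum through the A2780 OlaR libraries alone, so the filter itself set its groups apart. ADAM17, which releases AREG, EREG, TGFA and HBEGF, fell in A2780 OlaR from 19.4 to 12.8 FPKM (log2 fold change -0.56). RHBDF1 fell there by 0.31, and RHBDF2 rose (0.72). Both ADAM17 and RHBDF1 were also lower in C13* shCEBPB (-0.45 and -0.63).

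In the list of 34 adaptors and signal transducers 31 were DEGs in C13* (15 higher, 16 lower) and 30 in A2780 OlaR (14 higher, 16 lower). The kinase SRC fell in C13* shCEBPB (log2 fold change -1.88), and the transcription factors STAT5A and STAT5B rose (2.72 and 1.73). In A2780 OlaR, GRB7, whose product binds ERBB2 and whose gene lies beside ERBB2, rose from 1.71 to 19.9 FPKM (log2 fold change 2.95). STAT5A rose there too (2.42), and the adaptors GAB2 and CRK fell (-1.60 and -1.51). STAT5A reached the expression minimum there through the A2780 OlaR libraries alone, so the filter itself set its groups apart.

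The 16 feedback inhibitors and genes of receptor turnover had 14 DEGs in C13* (3 higher, 11 lower) and 12 in A2780 OlaR (3 higher, 9 lower). DUSP6 and DUSP5, phosphatases that act on ERK, fell in C13* shCEBPB from 16.8 to 0.338 FPKM and from 75.3 to 7.46 FPKM (log2 fold changes -3.73 and -3.18). DUSP6 reached the expression minimum there through the shCON libraries alone, so the filter itself set its groups apart. LRIG1, which promotes degradation of the receptors, rose in C13* shCEBPB (1.03), as did SOCS5 (0.62). In A2780 OlaR, DUSP5 and DUSP4 rose (3.56 and 3.11), but SPRY1, an inhibitor of the RAS to ERK cascade, fell from 106.7 to 6.82 FPKM and DUSP6 from 139 to 17.2 FPKM (-3.79 and -2.95).

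All 10 transcription outputs of ERK signalling were DEGs in both comparisons, where 84.7% and 89.8% of all genes were, with 4 higher and 6 lower in C13* shCEBPB and 8 higher and 2 lower in A2780 OlaR. FOSL1, an AP-1 subunit, fell from 310.0 to 25.8 FPKM in C13* shCEBPB (log2 fold change -3.54) and rose from 8.74 to 195.8 FPKM in A2780 OlaR (4.34). PHLDA1 fell in C13* shCEBPB (-3.13), whereas FOS, another AP-1 subunit, rose from 12.0 to 131.8 FPKM (3.35) and ETV4 rose (1.01). In A2780 OlaR the early response factor EGR1 rose from 16.3 to 119 FPKM (2.80), and ETV4 and ETV5 fell (-0.72 and -0.22).

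**Figure D5:**
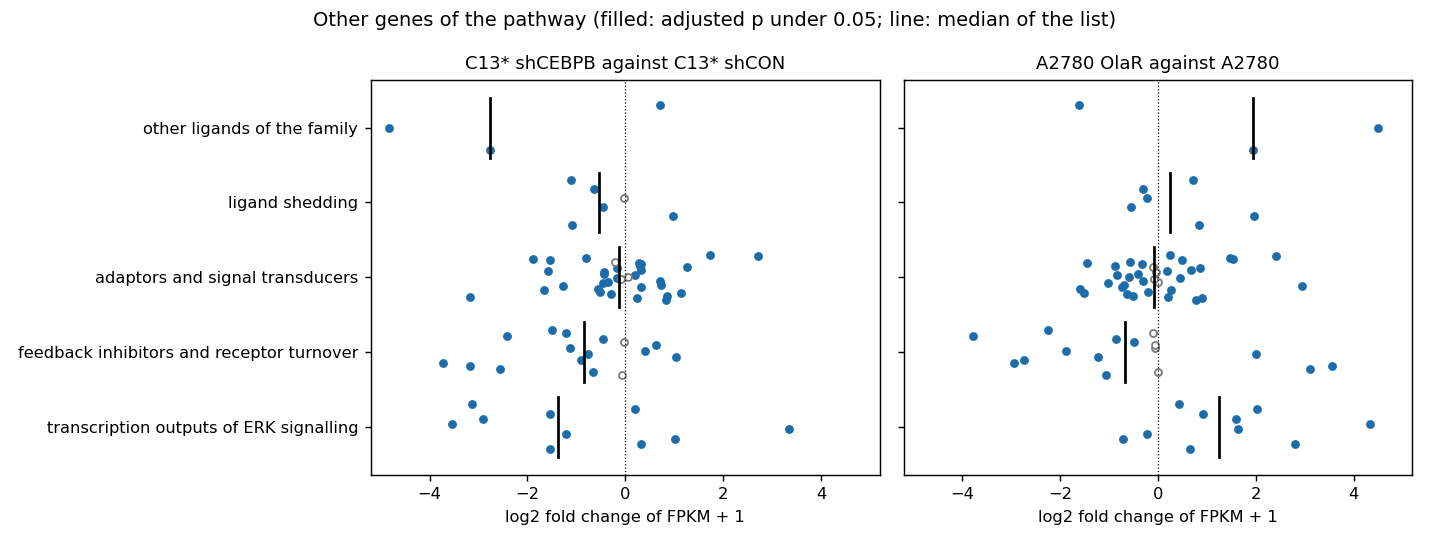
Log2 fold change of FPKM + 1 (horizontal axis) for each tested gene of the 5 pathway lists (rows), C13* shCEBPB against shCON on the left and A2780 OlaR against A2780 on the right, with filled points for adjusted p under 0.05 and black lines for the median of each list. The points of the ERK outputs spread from -3.54 to 3.35 on the left and from -0.72 to 4.34 on the right.

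AREG, TGFA and EREG had the widest range of group means on the log2(FPKM + 1) scale (4.12, 3.995 and 3.91), and for each the genes with the most similar levels over the 31 libraries were sought. Likeness was the root mean square difference of log2(FPKM + 1) after each gene was centred on its own mean, a small value meaning a close pattern. For AREG these were DUSP5 (0.27), PLCH2 (0.30) and MDFI (0.33). For TGFA they were FAM84B (0.17), GALNT18 (0.27) and LGALS3BP (0.29). EREG had the closest neighbours, UGT8 (0.06), HOOK1 (0.11) and PTAFR (0.14). UGT8, for instance, was at 13.9 FPKM in C13* shCON and 12.0 FPKM in A2780 OlaR and was listed at 0 in the means of the other groups. The 31 points of each pattern share 4 groups, so that a gene with the same order of groups scores as alike.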

How the data were processed

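The authors sequenced mRNA of 31 libraries, aligned the reads to hg38 with TopHat, counted them with HTSeq and deposited 1 table of FPKM values per gene. The tool and annotation that gave the deposited FPKM, and the use of strand, are not given in the sources used here. Of 19225 rows, 4 with a repeated symbol were left out, which left 19221 genes, and 23 symbols that had turned into dates were kept as written. Depth is known only relative to the median library (0.865 to 1.23), from the steps of FPKM below 0.3, so no counting interval is given. No libraries were identical. Groups came from the labels.

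Genes with an FPKM of at least 1 in a number of libraries equal to the size of the smaller group were tested with limma 3.58.1 in R 4.3.3 (log2(FPKM + 1), empirical Bayes with trend), and p-values were adjusted after Benjamini-Hochberg over all genes tested. A DEG has an adjusted p under 0.05. Depending on the comparison only the groups compared, or all 4 groups, were fitted. The study compared groups with an exact test on counts, for which limma stands in here because the values are FPKM. Single genes were also compared by an exact permutation test (Python 3.11.15, scipy 1.17.1). The code was tested on simulated data.

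The 10 genes and the lists were chosen with earlier results of these data known. Named are the 10 genes, CEBPB, the DEGs with the 2 largest rises and the 2 largest falls of each pathway list (1 of these genes is not reported here), and the 3 genes most like each of the 3 genes with the widest range of group means. Marker lists are named with their defining genes. Alternatives changed the pseudocount (0.1), the filter (none, or 5 FPKM), the scaling, the groups in the fit, the replicate block, the library numbers, the test and the fold required. Leaving out C13* shCON library 1 was chosen after seeing the data. Sequences came from RefSeq (GRCh38.p14).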

Additional observations from a re-analysis of the deposited data

Results flagged for a closer look

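Of 39 combinations of gene and group with 4 to 10 libraries, 3 had a highest library that stood apart from the others (Dixon's test). Chance gives about 1 in 20 for normally spread values, a rate that does not hold for groups listed mostly at 0. AREG in A2780 was at 0.227 FPKM in library 7, against at most 0.0929 FPKM in the others. BTC in C13* shCEBPB was at 0.0349 FPKM in library 6 and was listed at 0 in the other libraries. Any single value above 0 is flagged in such a group, so the test decides nothing for BTC. EGF in C13* shCEBPB was at 0.0243 FPKM in library 4, against at most 0.00852 FPKM in the others. All 3 values lie far under the expression minimum of 1 FPKM.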

How the results depend on the processing

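Of 191 values of a change under another setting, 170 kept their direction and their side of the threshold, 11 were no longer called, 8 became called and 2 reversed. Those that became called were of BTC, EGF and ERBB4, untested in the main fit, apart from ERBB2 in A2780 libraries 4 to 8. The lost calls of genes other than EGFR came only from also requiring a fold of at least 2. Both reversed values were of ERBB2 in A2780 OlaR, -0.0601 with libraries scaled to a common sum of FPKM and -0.21 in libraries 1 to 3. The call of EGFR in C13* was lost with no filter (adjusted p = 0.0541), a common sum of FPKM (0.0554), quantile normalization (0.418), libraries 4 to 8 (0.638) and an exact rank-sum test (0.0849). Requiring a fold of at least 2 left 3539 DEGs in C13* and 4446 in A2780, 4 of the receptors and ligands in C13*, and 30 and 27 of the pathway genes. Without C13* shCON replicate 1 there were 10065 DEGs, 7 receptors and ligands and 64 pathway genes.

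Same-numbered libraries did not deviate together (mean r -0.148 in C13* and -0.233 in A2780, with 2 of 7 and 1 of 8 pairs over 0.1). With the replicate block there were 9885 and 10960 DEGs (9833 in C13* by library number), 7 and 7 receptors and ligands and 63 and 61 pathway genes, and EGFR in C13* had a log2 fold change of 0.28 (adjusted p = 0.00634, limma). Without read totals, FPKM under about 0.1 cannot be given an error from counting.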
